A study of Rattus norvegicus with 3 samples.

Results

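The genes described here are 7 of the 10411 genes that the arrays name with 1 gene symbol. They are the guidance molecules Ntn1 and Rgma, the Notch ligand Jag1, the connexins Gja5 and Gja1, and the genes Nrep and Pik3ip1. Most were chosen because their signal was low with a treatment on these same arrays, so their values against unstimulated cells are a description and support nothing. All 12 probe sets that carry one of these symbols were followed, and 10 of them lay above the detection floor on at least 1 array. RNA was measured in ventricular myocytes from newborn rats, cultured for 48 h in every group. The groups were cells with 20 µM phenylephrine, cells with 1 µM PAMH and unstimulated cells, with 1 array each and no replicates. Phenylephrine stimulates α1-adrenergic receptors and is a standard hypertrophic stimulus for these cells, and PAMH is known here only by the code name that the submitters use. Strain, animal numbers and pooling are not given in the labels.

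Netrin-1, the product of Ntn1, is a secreted guidance cue that is read by the receptors DCC, neogenin and the UNC5 family. RGMa is anchored to the cell surface, binds neogenin and acts as a co-receptor for bone morphogenetic proteins. Jagged-1 binds Notch receptors on the neighbouring cell, whose cleaved intracellular domain then joins RBPJ and switches on genes of the Hes and Hey families. Connexins build the gap junctions through which current passes between heart cells: Gja1 encodes Cx43, the main connexin of working ventricular muscle, and Gja5 encodes Cx40, which is known from atria and the ventricular conduction system. Pik3ip1 encodes a membrane protein that binds the catalytic subunit of phosphoinositide 3-kinase and inhibits it. Nrep encodes a small protein that in mouse has been linked to the production of TGF-β and to the contractile state of fibroblasts and smooth muscle.

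Relative to the unstimulated array, Ntn1, Rgma, Jag1, Gja5, Nrep and Pik3ip1 had at least 2-fold lower signal with phenylephrine. Of these, Ntn1, Rgma, Jag1, Gja5 and Nrep were also at least 2-fold lower with PAMH, and Pik3ip1 was 1.74-fold lower. The brightest Gja1 probe set was lower by less than 1.5-fold with either compound, while a further one was 1.70-fold lower with phenylephrine, and other normalizations took the brightest past 1.5-fold. No Gja1 probe set above the floor reached 2-fold under the settings tried. On their brightest probe sets, Rgma, Jag1 and Gja5 were lower with PAMH than with phenylephrine, while Gja1, Nrep and Pik3ip1 were higher. The guidance gene Ntn1 was also higher with PAMH than with phenylephrine, by a bound of at least 1.91-fold. The further Gja5 probe set went the other way from the brightest, with a log2 ratio of 0.17. Of these differences between the compounds, that of Gja1 was no larger than those between probe sets of 1 gene. Those of Jag1 and Nrep were only somewhat larger, as given below.

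Signals below are deposited intensities after each array was multiplied by 1 factor to give equal medians. The factors were 1.02 for phenylephrine, 1.04 for PAMH and 0.937 for unstimulated cells. A signal under the floor of 76.0, percentile 40 of all scaled values, was not read as a level. Fold changes compare 1 array with 1 array, have no replicate check and carry no p-value. Probe sets of 1 gene disagreed in their log2 ratio against unstimulated cells by an SD of 0.27 with phenylephrine (864 genes) and 0.29 with PAMH (867 genes). For the ratio between the compounds this SD was 0.23 (866 genes). It holds no spread between cultures. The median measured gene had a phenylephrine log2 ratio of 0.07 and a PAMH one of 0.10.

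**Figure D1:**
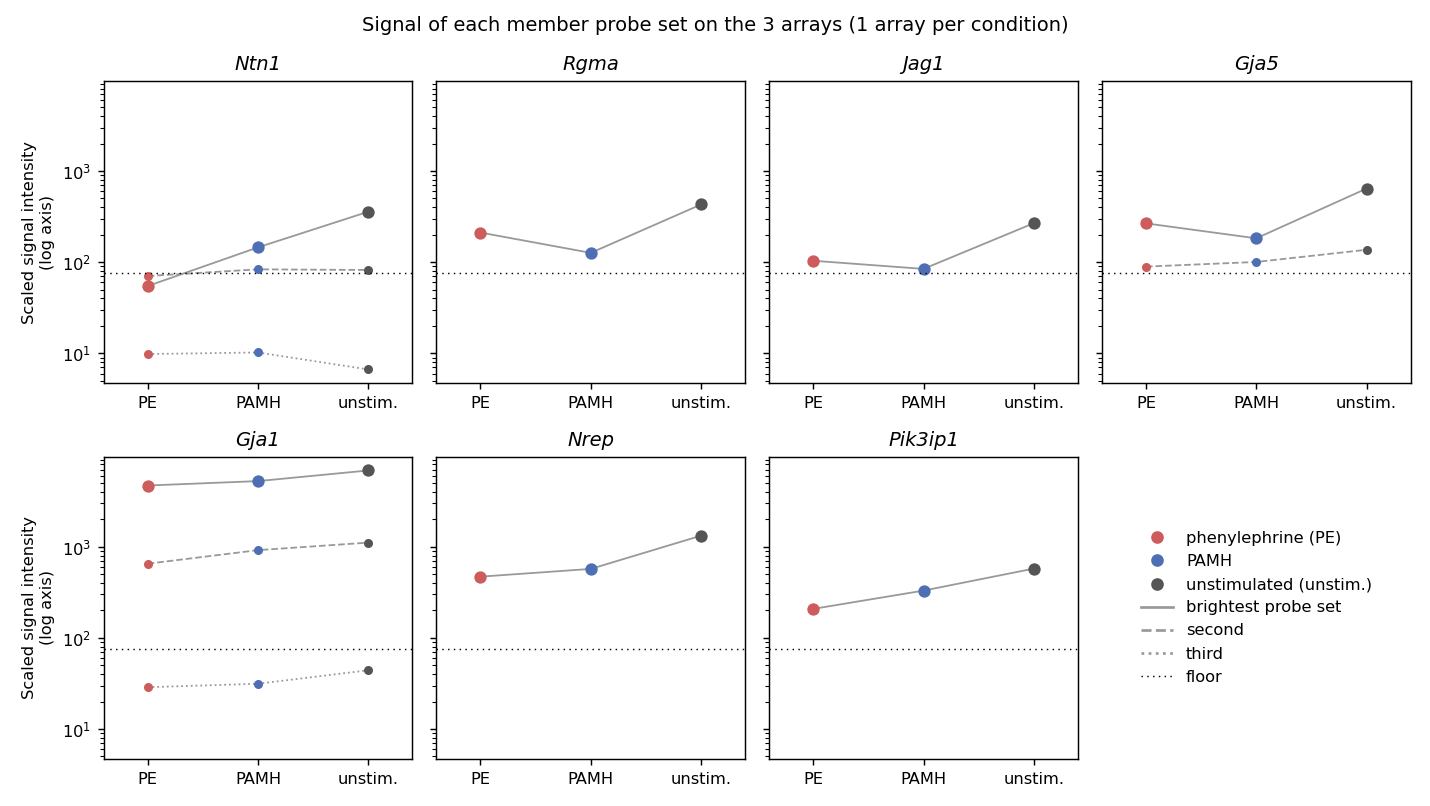
Scaled signal intensity (log axis) of every probe set of the 7 genes on the phenylephrine, PAMH and unstimulated arrays, with 1 point per array and the floor of 76.0 as a dotted line. The brightest probe set of each gene is lower on both treated arrays than on the unstimulated array, and for Ntn1 the phenylephrine point lies under the floor.

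Among the guidance genes, the brightest Ntn1 probe set had a signal of 54.7 with phenylephrine, 145 with PAMH and 358 in unstimulated cells. The phenylephrine signal was under the floor, so only a bound can be given: the signal was at least 4.71-fold lower with phenylephrine. With PAMH the same probe set was 2.46-fold lower (log2 ratio -1.30). The other Ntn1 probe sets did not show this difference. One had signals of 70.5 with phenylephrine, 83.4 with PAMH and 82.1 in unstimulated cells, all close to the floor, with a log2 ratio of 0.02 for PAMH that turned to -0.13 on the unscaled intensities. The other was below the floor on all 3 arrays. The Ntn1 values above therefore rest on 1 of 3 probe sets.

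Rgma had signals of 211 with phenylephrine, 127 with PAMH and 430 in unstimulated cells from its single probe set. It was 2.03-fold lower with phenylephrine (log2 ratio -1.02) and 3.40-fold lower with PAMH (-1.76). The phenylephrine ratio lay just past 2-fold and was -0.88 when an intensity of 50 was added to every signal before the logarithm. Among all genes measured in each comparison, Rgma had the 47th lowest ratio with phenylephrine and the 6th lowest with PAMH.

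Jag1 had signals of 104 with phenylephrine, 84.4 with PAMH and 268 in unstimulated cells. Both treated signals were above the floor, the PAMH one only narrowly. The gene was 2.58-fold lower with phenylephrine (log2 ratio -1.37) and 3.17-fold lower with PAMH (-1.67). With the offset of 50 the log2 ratios were -1.05 and -1.24 in the same order.

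Gja5 had signals of 267 with phenylephrine, 183 with PAMH and 642 in unstimulated cells on its brightest probe set. That is 2.41-fold lower with phenylephrine (log2 ratio -1.27) and 3.51-fold lower with PAMH (-1.81), which made it the 3rd lowest of the 6549 genes measured on the PAMH and unstimulated arrays. A further Gja5 probe set had 89.4 with phenylephrine, 101 with PAMH and 137 in unstimulated cells. It was lower on both treated arrays too, by log2 ratios of -0.61 with phenylephrine and -0.44 with PAMH. The probe sets of this gene therefore agree in direction but not in size, and the dimmer one lies nearer the floor.

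Gja1 had signals of 4692 with phenylephrine, 5245 with PAMH and 6861 in unstimulated cells on its brightest probe set. It was 1.46-fold lower with phenylephrine (log2 ratio -0.55) and 1.31-fold lower with PAMH (-0.39). A further probe set had 651 with phenylephrine, 917 with PAMH and 1109 in unstimulated cells, with log2 ratios of -0.77 and -0.27. The remaining Gja1 probe set was under the floor on every array. The brightest genes of these arrays tended to be higher with treatment: in the class of 640 genes that holds Gja1, the brightest of 10 equal classes by mean signal, the median log2 ratio was 0.24 with phenylephrine and 0.32 with PAMH. In that class 11 genes had a lower ratio than Gja1 with phenylephrine and 17 with PAMH. Normalizations that remove such a dependence on signal gave a lower Gja1 ratio, -0.83 with phenylephrine and -0.74 with PAMH after quantile normalization and -0.87 and -0.81 after cyclic loess, all past 1.5-fold.

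Nrep had signals of 469 with phenylephrine, 571 with PAMH and 1322 in unstimulated cells. It was 2.82-fold lower with phenylephrine (log2 ratio -1.49), the 9th lowest of 6571 genes, and 2.32-fold lower with PAMH (-1.21). Pik3ip1 had signals of 208 with phenylephrine, 330 with PAMH and 575 in unstimulated cells. Its ratio with phenylephrine was the next lowest after Nrep, 2.77-fold lower (log2 ratio -1.47). With PAMH it was 1.74-fold lower (-0.80) and ranked 114th. Nrep and Pik3ip1 were thus lower on the phenylephrine array than on the PAMH array, the opposite order to Rgma, Jag1 and Gja5.

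**Figure D2:**
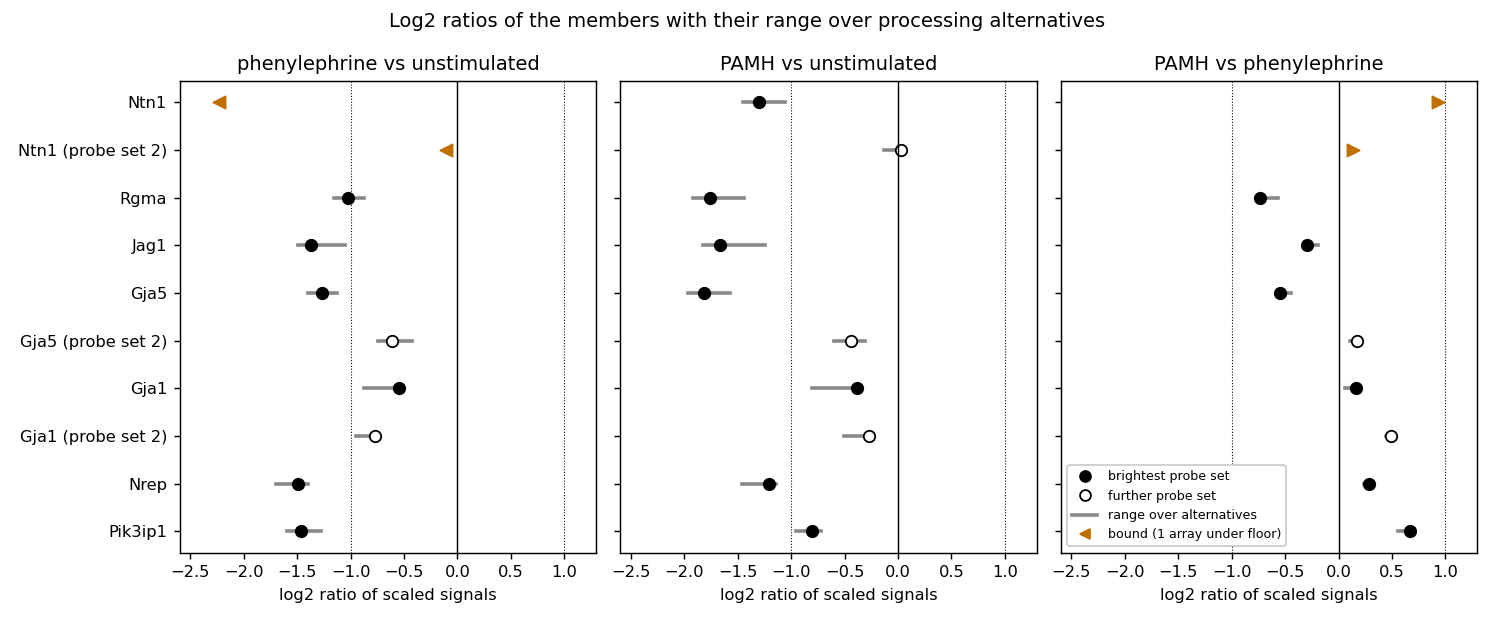
Log2 ratio of scaled signals (x axis) for each probe set of the 7 genes with at least 1 array above the floor, in 3 comparisons. Filled points are the brightest probe set, open points further ones, grey bars the range over the processing alternatives and triangles bounds where 1 array was under the floor. Dotted lines mark 2-fold. All points against unstimulated cells lie below 0 except the further Ntn1 probe set with PAMH.

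Such differences were uncommon among all genes. With phenylephrine 50 of 6571 measured genes (0.761%) were at least 2-fold lower, and 5 of the 6 measured members were among them, with Ntn1 added by its bound. With PAMH 52 of 6549 measured genes (0.794%) were at least 2-fold lower, and 5 of 7 members were among them. At 1.5-fold, 4.54% of measured genes were lower with phenylephrine and 4.17% with PAMH, against 5 of 6 and 6 of 7 members. Because members were selected on these contrasts, nothing is read from their counts against these shares.

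**Figure D3:**
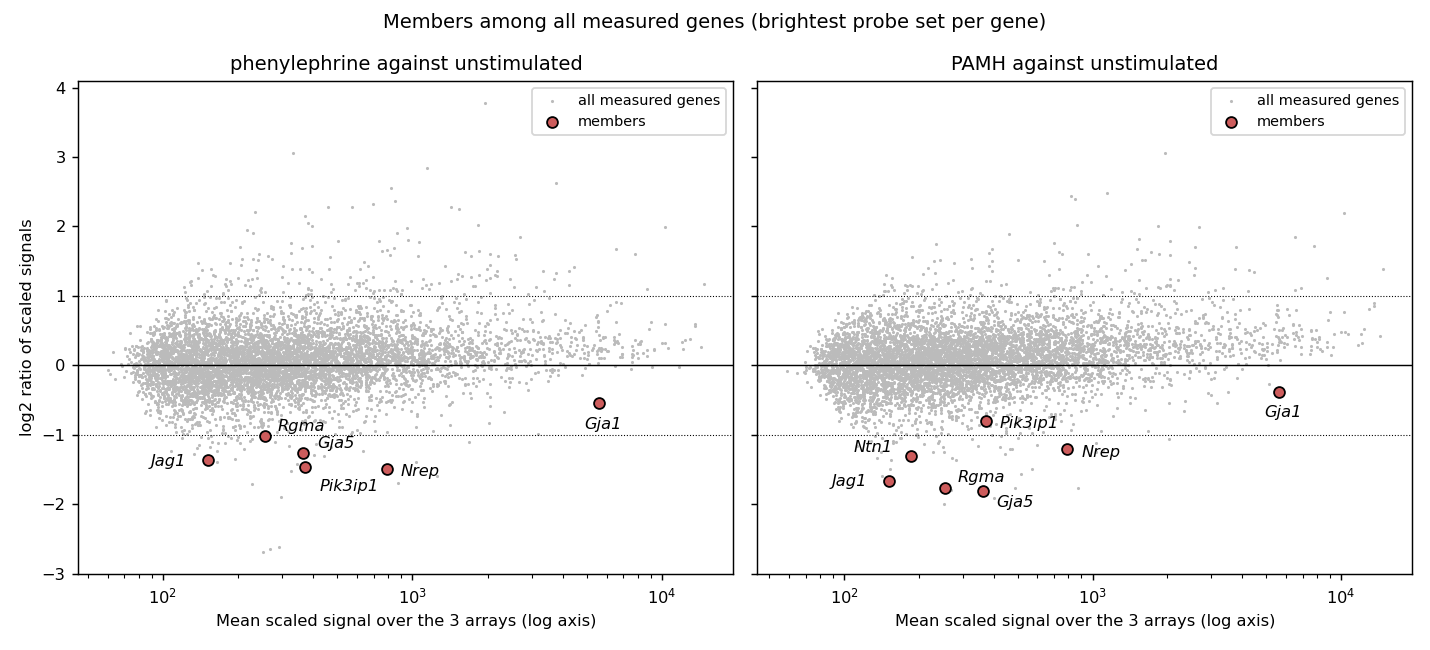
Log2 ratio of scaled signals (y axis) against mean scaled signal over the 3 arrays (x axis, log) for all genes measured in each comparison (grey) and the 7 genes described here (red). Dotted lines mark 2-fold. In both panels Gja1 lies at the bright end between 0 and -1, and Ntn1 is missing from the phenylephrine panel because it has only a bound there.

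The compounds were used at different doses, 1 µM for PAMH and 20 µM for phenylephrine, so the values that set them side by side are not at matched dose. Rgma was 1.67-fold lower with PAMH than with phenylephrine (log2 ratio -0.74). Pik3ip1 was 1.59-fold higher with PAMH than with phenylephrine (0.67). Ntn1 was at least 1.91-fold higher with PAMH than with phenylephrine, since the phenylephrine signal was under the floor. The log2 ratio of PAMH over phenylephrine was -0.55 for Gja5, -0.30 for Jag1, 0.28 for Nrep and 0.16 for Gja1. That of Gja1 was within the SD of 0.23 between probe sets of a gene, and those of Jag1 and Nrep were past it but close to it. The further Gja5 probe set went the other way (0.17), and that of Gja1 had 0.49. No member with a measured ratio was 2-fold different between the compounds, and the bound for Ntn1 does not tell whether it was. Over all 6593 genes measured on both treated arrays, 2.67% were at least 1.5-fold lower and 1.93% at least 1.5-fold higher with PAMH than with phenylephrine. Among the 6 members measured, 1 was lower and 1 higher at this size. With the offset of 50 the log2 ratios of Rgma and Pik3ip1 were -0.57 and 0.56, short of 1.5-fold.

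Promoter sequence is shown for Rgma, Jag1 and Gja5, which were more than 3-fold lower with PAMH, and for Gja1, as the other connexin, and Pik3ip1, the member lower with phenylephrine than with PAMH that held the rarest motif match. RefSeq promoters (rat build GRCr8) were found for 6 of the 7 genes, all but Ntn1. The stretches below are the 250 bases before the start of the gene, 5′ to 3′ on its own strand. Capitals mark matches, on either strand, to searched motifs that fewer than 40% of all promoters hold.
Rgma, chr1:136538532-136538781, plus strand: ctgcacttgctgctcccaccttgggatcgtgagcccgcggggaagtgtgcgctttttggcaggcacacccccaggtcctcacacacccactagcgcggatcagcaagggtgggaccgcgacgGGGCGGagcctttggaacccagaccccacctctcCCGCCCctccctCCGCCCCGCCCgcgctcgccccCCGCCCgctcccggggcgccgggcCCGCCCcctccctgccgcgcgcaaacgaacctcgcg
Jag1, chr3:144894884-144895133, minus strand: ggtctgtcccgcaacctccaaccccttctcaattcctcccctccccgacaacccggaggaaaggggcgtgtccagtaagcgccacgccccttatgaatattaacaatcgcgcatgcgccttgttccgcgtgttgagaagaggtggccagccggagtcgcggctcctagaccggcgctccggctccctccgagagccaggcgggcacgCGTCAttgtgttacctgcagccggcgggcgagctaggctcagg
Gja5, chr2:187290977-187291226, plus strand: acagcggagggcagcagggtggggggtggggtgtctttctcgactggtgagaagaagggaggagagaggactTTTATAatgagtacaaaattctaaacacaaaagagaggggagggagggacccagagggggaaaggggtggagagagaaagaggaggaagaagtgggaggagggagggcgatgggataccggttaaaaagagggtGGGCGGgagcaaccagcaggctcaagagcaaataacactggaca
Gja1, chr20:36302314-36302563, plus strand: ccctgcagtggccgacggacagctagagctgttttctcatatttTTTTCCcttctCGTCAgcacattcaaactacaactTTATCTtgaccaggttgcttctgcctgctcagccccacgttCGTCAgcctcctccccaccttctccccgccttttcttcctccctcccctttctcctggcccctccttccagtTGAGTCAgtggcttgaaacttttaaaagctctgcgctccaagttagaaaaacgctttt
Pik3ip1, chr14:82428065-82428314, plus strand: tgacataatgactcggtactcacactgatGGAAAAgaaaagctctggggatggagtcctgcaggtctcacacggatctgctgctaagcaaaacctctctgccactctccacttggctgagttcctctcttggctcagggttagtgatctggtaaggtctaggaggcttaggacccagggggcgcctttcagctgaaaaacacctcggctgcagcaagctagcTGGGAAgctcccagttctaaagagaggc

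Motifs were searched on both strands in 300 bases, from 250 before to 50 after the start, in these promoters and in all 33469 promoters of the table. The capitals in Rgma are 6 copies of the GC box GGGCGG, which 33.1% of promoters hold and which Sp1-like factors bind. In Jag1 they are 1 copy of the CRE core TGACG (21.2% of promoters). In Gja5 they are a TATA core, TATAAA (14.2%), which lies 178 bases before the start and on the opposite strand, and a GC box. In Gja1 they are the NFAT core GGAAAA (24.7%), the CRE core at 2 places, the GATA core AGATAA (11.6%) and the AP-1 site TGANTCA (7.33%). In Pik3ip1 they are the NFAT core and the RBPJ core TGGGAA (25.7%).

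Pik3ip1 also held the FOXO core GTAAACA, which 3.78% of promoters hold, beginning at the start itself and so just past the stretch shown. The RBPJ core was found in 1 of the 6 promoters and it was not that of Jag1. The commoner motifs were the E-box CANNTG (72.1% of promoters, all 6 here), the NKX2 core AAGTG (46.2%, 4 of 6), which can overlap an E-box, and CCAAT (37.5%, 1 of 6). The T-box core GGTGTGA (3.83% of promoters) and the E-box form CACGTG (6.42%), itself a CANNTG, were in none of the 6. Rgma had 74.0% GC before its start, Jag1 64.4%, Gja5 54.8%, Pik3ip1 53.2% and Gja1 51.2%, where the median of all promoters was 51.2%. None of the motifs in capitals was shared by all of Rgma, Jag1 and Gja5. A match describes letters only, and no binding was measured.

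The genes around each member were read from lists of their pathways, without the members. For these lists a gene was counted at 1.5-fold, a size that 4.54% of all measured genes passed as lower and 8.90% as higher with phenylephrine. With PAMH the shares were 4.17% lower and 9.31% higher. Over all pathway lists together, 18 of 144 measured genes were higher and 11 lower with phenylephrine, and 16 of 145 were higher and 8 lower with PAMH. On the unscaled intensities the calls were 15 higher and 14 lower with phenylephrine and 9 higher and 15 lower with PAMH, so the balance of higher and lower calls depends on the scaling. Cyclic loess gave 13 higher and 13 lower with phenylephrine and 9 higher and 10 lower with PAMH.

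The receptors of netrin-1 and RGMa stayed within 1.5-fold where they were measured. Neo1, which encodes neogenin, had signals of 190 with phenylephrine, 136 with PAMH and 141 in unstimulated cells, log2 ratios of 0.43 and -0.05. Unc5b had signals of 191 with phenylephrine, 169 with PAMH and 169 in unstimulated cells. Dcc and Unc5a were under the floor on all 3 arrays. Of 10 measured genes of the netrin and RGM pathway, 1 was lower and 0 higher with phenylephrine (median 0.26 on the log2 scale). With PAMH 1 of 10 was higher and 0 lower (median 0.01). The lower gene was Dock1, an activator of the GTPase Rac, with signals of 232 with phenylephrine, 265 with PAMH and 396 in unstimulated cells (log2 ratios -0.77 and -0.58). The higher one was Bmpr1a, a receptor for bone morphogenetic proteins, with signals of 527 with phenylephrine, 739 with PAMH and 451 in unstimulated cells (0.22 and 0.71). Its PAMH ratio was short of 1.5-fold on the unscaled intensities and after cyclic loess.

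Other guidance genes went in both directions, 3 higher and 3 lower of 16 with phenylephrine and 2 higher and 2 lower of 14 with PAMH. Sema3c, a secreted semaphorin needed for the cardiac outflow tract, had signals of 1767 with phenylephrine, 896 with PAMH and 515 in unstimulated cells. Its log2 ratio was 1.78 with phenylephrine and 0.80 with PAMH. Nrp1, a receptor of semaphorins and of vascular endothelial growth factor, had signals of 750 with phenylephrine, 817 with PAMH and 1165 in unstimulated cells (-0.64 and -0.51). The Nrp1 value with PAMH was short of 1.5-fold. Sema5a was lower with both compounds, at -0.75 with phenylephrine and -0.96 with PAMH. Epha3, an ephrin receptor, was at -1.24 with phenylephrine and at least 2.39-fold lower with PAMH, where it was under the floor. Epha2 was higher with phenylephrine (0.82) and had 0.56 with PAMH. Plxnb1, a plexin, was higher with phenylephrine (0.72) and had 0.35 with PAMH, whereas Plxna3 had 0.57 with phenylephrine and was higher with PAMH (0.86). A further Plxna3 probe set did not show this (0.02 and -0.17). Sema6c had 0.34 with phenylephrine and was lower with PAMH (-0.61). Under the offset of 50, Plxnb1 with phenylephrine and Sema6c with PAMH were short of 1.5-fold.

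For Notch, Jag1 stood beside receptors that were mostly not detected. Notch1, Notch2 and Notch4 were under the floor on all 3 arrays, and Notch3 had signals of 105 with phenylephrine, 135 with PAMH and 96.8 in unstimulated cells. Among the other ligands, Dll1 and Dll3 were under the floor, and Jag2 lay at it, with 94.4 with phenylephrine, 73.2 with PAMH and 82.0 in unstimulated cells. The target genes went in opposite directions. Hes1 had signals of 237 with phenylephrine, 244 with PAMH and 378 in unstimulated cells (log2 ratios -0.67 and -0.63). Under the offset of 50 both Hes1 ratios were short of 1.5-fold. Hes5 had 223 with phenylephrine, 170 with PAMH and 91.1 in unstimulated cells (1.29 and 0.90), and its further probe set was under the floor. Rbpj, the DNA-binding partner of Notch, had log2 ratios of 0.06 and -0.27. The target Nrarp had 0.34 with phenylephrine and 0.01 with PAMH. Hes6, a further Hes gene of the list and not read as a target, had 0.11 and -0.06. Over the pathway, 1 of 23 measured genes was higher and 1 lower with phenylephrine (median 0.06), and 1 of 25 was higher and 1 lower with PAMH (median -0.06), the called genes being Hes5 and Hes1 each time. Dtx4, which encodes a Deltex protein, was at least 1.59-fold lower with phenylephrine by its bound and had -0.15 with PAMH.

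Other connexins gave little to set beside Gja5 and Gja1. Gja3 had signals of 77.2 with phenylephrine, 91.9 with PAMH and 124 in unstimulated cells, log2 ratios of -0.68 and -0.43 close to the floor. Gja4, which encodes a connexin of endothelial cells, had 117 with phenylephrine, 33.0 with PAMH and 69.1 in unstimulated cells and was at least 1.54-fold higher with phenylephrine. Gja6 had 79.7 with phenylephrine, 62.4 with PAMH and 72.0 in unstimulated cells. Gjb1, Gjb2, Gjb5, Gjb6 and Gjd2 were under the floor on all 3 arrays.

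At the intercalated disc, where gap junctions sit beside adhesion complexes, a part of the other genes was higher. With phenylephrine 6 of 18 measured genes were at least 1.5-fold higher and 0 lower (median log2 ratio 0.23), and with PAMH 6 of 19 were higher and 0 lower (median 0.30). Genes known only by a bound are outside these counts: Dsc2, a desmosomal cadherin, was at least 2.06-fold higher with phenylephrine and 2.67-fold with PAMH, and Ank2, which encodes ankyrin-B, was at least 2.04-fold lower with phenylephrine and had -0.44 with PAMH. Others had small ratios below 0 with phenylephrine, such as Dsp (-0.19) and Ctnnb1 (-0.14). Zyx, which encodes the adhesion protein zyxin, had signals of 1065 with phenylephrine, 1158 with PAMH and 504 in unstimulated cells (1.08 and 1.20). Nrap, an actin anchor of myofibril ends, had 2047 with phenylephrine, 1796 with PAMH and 1004 in unstimulated cells (1.03 and 0.84). Ctnna1, α-catenin of the adherens junction, had 7560 with phenylephrine, 6832 with PAMH and 4146 in unstimulated cells (0.87 and 0.72). The other genes past 1.5-fold were Xirp1 (0.79 and 0.95), Tjp1, which encodes the Cx43-binding protein ZO-1 (0.59 and 0.69), Tln1 with phenylephrine (0.65, with 0.37 for PAMH) and Pkp2 with PAMH (0.60, with 0.44 for phenylephrine). Under both quantile normalization and cyclic loess, Ctnna1 and Tjp1 with either compound, Tln1 with phenylephrine and Pkp2 with PAMH were short of 1.5-fold. Nrap with PAMH was short of it after cyclic loess (0.57). On the unscaled intensities Tjp1 with either compound, Tln1 with phenylephrine, and Ctnna1 and Pkp2 with PAMH were also short.

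Transcription factors and ion channels of the conduction system showed no common direction, with medians over 21 genes of -0.02 (phenylephrine) and 0.04 (PAMH). With phenylephrine 4 were higher and 2 lower, and with PAMH 4 were higher and 1 lower. Nkx2-5, a cardiac factor that in mouse acts on Gja5, had signals of 728 with phenylephrine, 797 with PAMH and 446 in unstimulated cells (0.71 and 0.84). Tbx5, another factor tied to Gja5 in mouse, had 122 with phenylephrine, 118 with PAMH and 168 in unstimulated cells (-0.46 and -0.50). Scn3b, a sodium channel subunit, had 299 with phenylephrine, 219 with PAMH and 104 in unstimulated cells (1.53 and 1.08). Cacna2d1, a calcium channel subunit, was higher with both compounds (0.83 and 0.71), and Hcn2, a pacemaker channel, with phenylephrine (0.83, with 0.28 for PAMH). Nkx2-5 with phenylephrine and Cacna2d1 with PAMH were short of 1.5-fold on the unscaled intensities and after cyclic loess. For Nkx2-5 with phenylephrine this also held after quantile normalization.

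Some conduction genes differed between the compounds. Id2, an inhibitor of helix-loop-helix factors, had 519 with phenylephrine, 263 with PAMH and 608 in unstimulated cells, log2 ratios of -0.23 and -1.21, while its further probe set was under the floor except with phenylephrine (105). Cacna1g, a T-type calcium channel, had 116 with phenylephrine, 245 with PAMH and 252 in unstimulated cells (-1.12 and -0.04). Hopx, a homeodomain-only cofactor, had 352 with phenylephrine, 752 with PAMH and 501 in unstimulated cells (-0.51 and 0.59), and its PAMH ratio was short of 1.5-fold under each other scaling tried. Prox1 had -0.67 with phenylephrine and -0.21 with PAMH, but its ratio between the compounds (0.47) was short of 1.5-fold.

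In the phosphoinositide 3-kinase pathway, the kinase that Pik3ip1 restrains and its partners showed no common direction. Pik3ca, a catalytic subunit, had signals of 310 with phenylephrine, 290 with PAMH and 183 in unstimulated cells (0.76 and 0.66), while a further probe set of it gave 0.24 and 0.03. Pik3r1, a regulatory subunit, was under the floor on all 3 arrays. With phenylephrine 3 of 35 measured genes were higher and 3 lower (median 0.01), and with PAMH 1 of 36 was higher and 4 lower (median 0.02). The lower genes with both compounds were Sesn1 and Trib3. Sesn1, a sestrin, had 89.7 with phenylephrine, 94.2 with PAMH and 172 in unstimulated cells (-0.94 and -0.87). Trib3, an Akt-binding pseudokinase, had 220 with phenylephrine, 160 with PAMH and 341 in unstimulated cells (-0.63 and -1.09). Ddit4, an inhibitor of mTOR complex signalling, had 202 with phenylephrine, 150 with PAMH and 288 in unstimulated cells (-0.52 and -0.95). Foxo3 had -0.67 with phenylephrine and -0.20 with PAMH, and Foxo4 had -0.21 and -0.61. The higher genes besides Pik3ca were Eif4ebp1 (0.71 and 0.56) and Insr, the insulin receptor (0.65 and 0.26), both with phenylephrine. Eif4ebp1 was short of 1.5-fold after quantile normalization and cyclic loess. Insr with phenylephrine and Pik3ca with PAMH were short of it on the unscaled intensities and under the offset of 50. Under that offset Foxo3 and Trib3 with phenylephrine and Foxo4 with PAMH were short as well.

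Of the TGF-β ligands set beside Nrep, Tgfb2 had signals of 805 with phenylephrine, 817 with PAMH and 287 in unstimulated cells. Its log2 ratios were 1.49 and 1.51, and a further probe set gave 1.65 and 1.64. Tgfb3 had -0.25 with phenylephrine and -0.18 with PAMH, and Tgfb1 was under the floor on all 3 arrays. Tgfb2 was the one gene with a measured ratio past 1.5-fold in this list, among 20 measured with phenylephrine and 19 with PAMH. By its bound Ltbp2, which encodes a latent TGF-β binding protein, was at least 1.87-fold higher with phenylephrine, with signals of 142 with phenylephrine, 45.6 with PAMH and 71.4 in unstimulated cells.

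**Figure D4:**
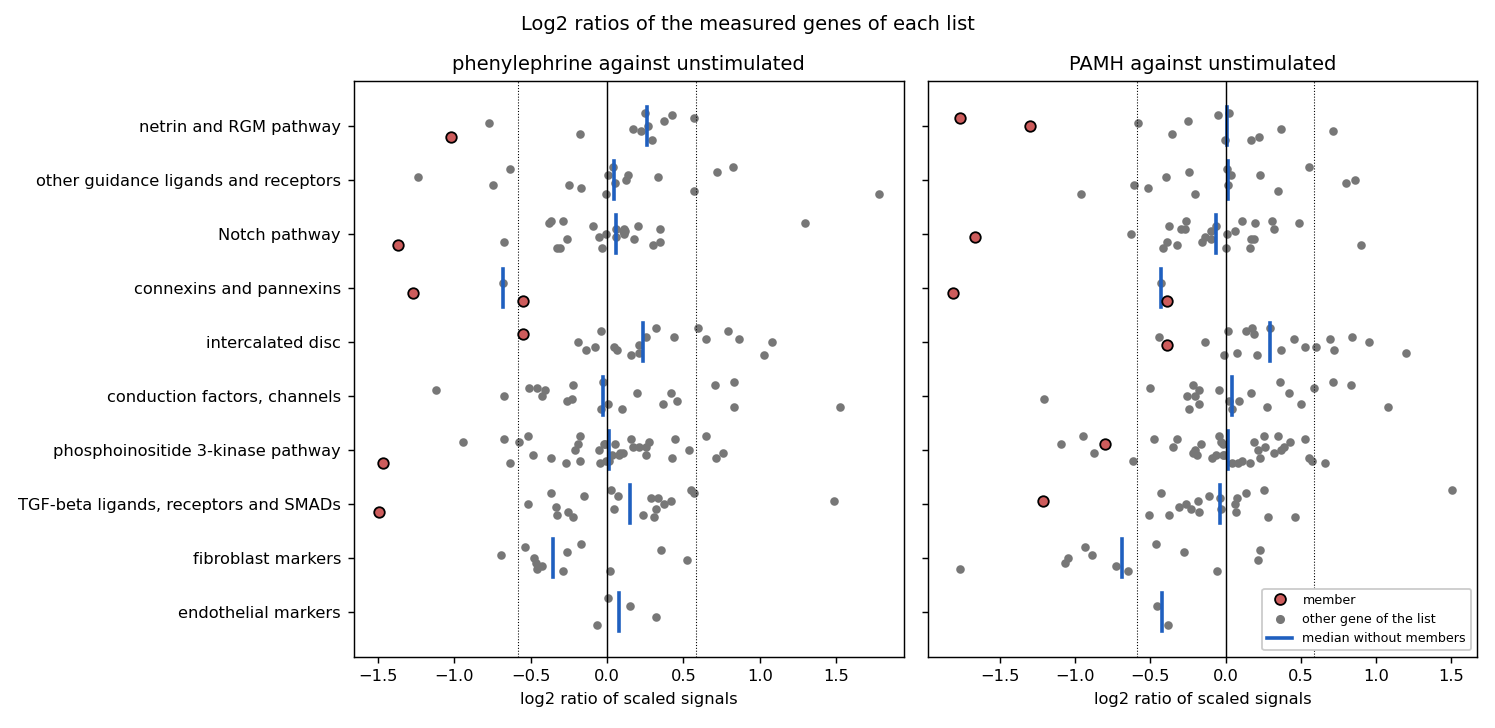
Log2 ratio of scaled signals (x axis) against unstimulated cells for every measured gene of each list (rows). Grey points are other genes of the list, red points the members, blue bars the median without members and dotted lines 1.5-fold. The members Rgma, Jag1, Gja5, Nrep and Pik3ip1 lie at or beyond the low end of their lists with phenylephrine, and for the pathway lists other than the connexins the medians without members lie between -0.02 and 0.26 with phenylephrine and between -0.06 and 0.30 with PAMH.

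Markers of other cell types were read because these are bulk cultures, in which fewer cells of a type and less RNA per cell cannot be told apart. The summed signals include markers under the floor, so the sum of a list that is mostly under the floor is not a level. All 15 cardiomyocyte markers on the arrays were above the floor, with a summed signal of 111355 with phenylephrine, 132029 with PAMH and 94719 in unstimulated cells. Of these, 3 were at least 1.5-fold higher and 1 lower with phenylephrine, and 5 were higher and 1 lower with PAMH. The median log2 ratios were 0.04 and 0.42, and the lower gene was Mb (-0.67 with either compound). Each of the higher calls was short of 1.5-fold after quantile normalization and after cyclic loess. All 15 fibroblast markers were above the floor on at least 1 array, with sums of 21568 with phenylephrine, 18774 with PAMH and 21920 in unstimulated cells. A large part of these sums came from S100a4 (9154, 8409 and 7168 in the same order) and Vim (4101, 3881 and 4045). Of 12 fibroblast markers measured in each comparison, 1 was at least 1.5-fold lower with phenylephrine and 7 with PAMH, none was higher, and the median log2 ratios were -0.35 and -0.68. The matrix genes Postn, Col3a1 and Lum, the lowest with PAMH, had -0.46, -0.46 and -0.48 with phenylephrine and -1.76, -1.06 and -1.04 with PAMH. In contrast, S100a4 (0.35 and 0.23) and Thy1 (0.53 and 0.21) were above 0 with both compounds, and Vim was near it (0.02 and -0.06). A further Thy1 probe set had -0.53 with phenylephrine, and a further Col1a1 probe set had -0.13 and -0.04. Most but not all fibroblast markers thus moved in the same direction as the members, and their part in the members' ratios was not tested.

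Of 15 endothelial markers, 9 were under the floor on all 3 arrays, the defining genes Pecam1, Kdr, Flt1 and Vwf among them. Their sums were 1084 with phenylephrine, 706 with PAMH and 935 in unstimulated cells. Smooth muscle markers were above the floor for 10 of 11 genes, with sums of 20802 with phenylephrine, 17299 with PAMH and 10308 in unstimulated cells. Of 10 measured, 6 were at least 1.5-fold higher and 0 lower with phenylephrine, and 5 were higher and 1 lower with PAMH. The higher genes were Cnn1 (2.85 and 2.48), Synpo2 (1.38 and 1.16), Des (1.36 and 1.12), Acta2 (1.29 and 1.52) and Myl9 (0.97 and 0.64). Tagln was higher with phenylephrine only (0.88, with 0.37 for PAMH). Which cells these signals came from was not tested. On their brightest probe sets Myh11 (0.02 and -0.64), Smtn (-0.36 and -0.19), Mylk (-0.30 and -0.58) and Cald1 (-0.14 and -0.47) were near 0 or below it. Macrophage markers were under the floor for 8 of 12 genes, C1qa and Ptprc included, with sums of 586 with phenylephrine, 723 with PAMH and 600 in unstimulated cells. Epicardial markers were under the floor for 3 of 7 genes, Wt1 included (sums 888, 760 and 561 in the same order of arrays). Schwann cell and neuronal markers were under the floor for 13 of 15 (1346, 1318 and 1201) and erythroid markers for 2 of 5 (405, 358 and 329). Hprt1, often used as a stable reference gene, had 1530 with phenylephrine, 1403 with PAMH and 867 in unstimulated cells, log2 ratios of 0.82 and 0.70.

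The genes with the most similar pair of log2 ratios were found by Euclidean distance, among 4841 genes (4842 for Jag1) above the floor on all 3 arrays with a mean signal above percentile 60. For Gja5 the nearest were Sphkap, which encodes an anchor of protein kinase A (distance 0.11 on the log2 scale), Rgma (0.25) and Col14a1, a collagen (0.31). For Jag1 they were Gja5 (0.18), Sphkap (0.26) and Col14a1 (0.31), and for Rgma they were Col14a1 (0.20), Gja5 (0.25) and Coq8a (0.27). Sphkap had signals of 294 with phenylephrine, 191 with PAMH and 720 in unstimulated cells. Rgma and Jag1 were not among each other's 3 nearest genes.

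For Nrep the nearest genes were Zcchc24 (0.087), Ctdsp2 (0.10) and Ogn, which encodes the matrix protein osteoglycin (0.20). For Pik3ip1 they were S100a13 (0.11), G0s2, an inhibitor of fat breakdown (0.23), and Usp21 (0.24). G0s2 had signals of 628 with phenylephrine, 1242 with PAMH and 1905 in unstimulated cells. Gja1, whose ratios were small, had many near neighbours, the closest being Hgsnat, Pnpla8 and Zfp704 at 0.015, 0.016 and 0.019. These distances use the brightest probe sets and the ratios against the shared unstimulated array by which the members were chosen, so they are a description only.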

How the data were processed

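The series holds 3 Affymetrix rat arrays, 1 per condition. The deposited values are linear signal intensities, 1 for each of 15923 probe sets per array; the software behind these deposited intensities is not given in the sources used here, nor are detection calls. Genes were named from the platform annotation and updated by gene identifier: 12783 probe sets carried 1 symbol, 312 several and 2771 none, after 57 control probe sets were set aside.

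Each array was scaled to equal medians over non-control probe sets, which removed log2 shifts of -0.13 (phenylephrine) and -0.15 (PAMH). A ratio needed both arrays at or above the floor. Where 1 was below it, the brighter signal over the floor is a lower bound. A gene was its brightest probe set. No test was run, since each group had 1 array, which also sets the precision. Alternatives were unscaled intensities, scaling on percentile 75, quantile and cyclic loess normalization, floors at percentile 30 and 50 or none, an offset of 50 and, for the lists only, the mean of probe sets and genes with 1 probe set.

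The members and the gene lists were chosen with earlier results of these data known. Named genes were every member probe set, up to 3 genes per direction and list past 1.5-fold, direct partners of members, and the 3 nearest patterns. Promoters came from RefSeq (GRCr8). Python 3.11.15, numpy 2.4.6, pandas 2.3.3, matplotlib 3.10.9, R 4.3.3 and limma 3.58.1 were used. The scaling and ratio steps were checked on simulated data with known changes in bright probe sets only. That check does not cover changes at dim signals or the size of bounds.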

Additional observations from a re-analysis of the deposited data

How the results depend on the processing

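No paired analysis was possible because each condition had 1 array. The count of members at least 2-fold lower was 6 with phenylephrine (Ntn1 by its bound) under 7 of the 8 alternatives of scaling, normalization, floor and offset, and 5 with the offset of 50, where Rgma fell short. It was 5 with PAMH, and 0 for PAMH against phenylephrine, under all 8. As a count of lower members, the last does not cover Ntn1, which was higher with PAMH than with phenylephrine. The mean of probe sets and the restriction to genes with 1 probe set were run for the gene lists only. The Ntn1 bound with phenylephrine ranged over 3.24-fold (floor at percentile 50) to 5.02-fold (unscaled intensities), and without a floor its ratio was 6.54-fold lower. The further Gja5 probe set had a log2 ratio of -0.42 with phenylephrine under the offset of 50, short of 1.5-fold. Counts of pathway genes past 1.5-fold depended on the floor. Without one they were 60 with phenylephrine (29 with the floor), 65 with PAMH (24) and 40 for PAMH against phenylephrine (7). The last was 11 with the floor at percentile 30. More genes are tested under these settings, down to signals at which levels cannot be read. The split of higher and lower calls moved most with PAMH, where 66.7% of calls were higher, against 37.5% on unscaled intensities, 54.5% after quantile normalization and 47.4% after cyclic loess. With phenylephrine the share was 62.1%, against 51.7% on unscaled intensities and 13 of 26 calls after either of the other normalizations. The median of the cardiomyocyte markers was 0.04 with phenylephrine and 0.42 with PAMH, and -0.25 and -0.05 after cyclic loess. The causes of these differences were not tested. Signals near the floor limit Ntn1, Jag1, Gja3 and Epha3, among others.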
